A study of Mus musculus with 6 samples.

Results

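The genes described here are the glucocorticoid receptor gene Nr3c1 and 9 genes that glucocorticoid hormones are known to induce or that handle the hormone in tissue: Fkbp5, Tsc22d3, Zbtb16, Sgk1, Errfi1, Map3k6, Cebpb, Cebpd and Hsd11b1. They were chosen by symbol, with earlier results of these data known. They were found through their Entrez gene IDs, and all 10 were among the 13363 genes of the deposited expression values. RNA was sequenced from the gastrocnemius, a calf muscle made mostly of fast fibers, of Balb/c mice. The 3 C26 muscles came from mice inoculated under the skin of the right flank with 500000 C26 cells, a colon carcinoma line of the mouse that wastes muscle and fat in its host, and the 3 Control muscles came from mice without a tumor. All mice were males bought at 6 weeks of age and acclimated for 1 week, and the sources name no transgene and no hormone treatment in either group. The paper followed body weight for 15 days after tumor implantation and gives no separate day of collection for the sequenced muscles. The labels number the muscles of a group without saying which mouse each came from, so the p-values measure the spread between these muscles. C26 is a transplanted line, so the comparison holds for this tumor in this strain.

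Glucocorticoids, corticosterone in the mouse, enter cells and bind the receptor encoded by Nr3c1, which waits in the cytoplasm in a complex with heat shock proteins and immunophilins. The bound receptor moves to the nucleus and raises or lowers transcription, in part by binding as a dimer to a palindromic DNA element. In skeletal muscle the hormone is known for slowing protein synthesis and speeding protein breakdown, and inside cells the enzyme encoded by Hsd11b1 makes active hormone from its inactive form.

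Promoter sequences give a view of these genes that does not depend on the muscles. RefSeq windows (build GRCm38.p6) from 250 bases before to 50 bases after an annotated start were matched for 7 of the 10 members, 15 windows in all, and not for Nr3c1, Zbtb16 or Cebpd. They were searched for the palindromic glucocorticoid response element, taken as the arms GNACA and TGTNC with any 3 bases between them, which reads the same on both strands. The element was found in 156 of all 32851 RefSeq windows (0.475%) and in 0.368% of the windows of genes with expression values. Among the members it was found in 2 of the 15 windows, 1 of Sgk1 and 1 of Map3k6. Those 2 windows are shown with the matched bases in capitals, beside that of Fkbp5, a member with a large change in C26 muscle whose window held no match:
Sgk1, chr10:21993640-21993939, plus strand: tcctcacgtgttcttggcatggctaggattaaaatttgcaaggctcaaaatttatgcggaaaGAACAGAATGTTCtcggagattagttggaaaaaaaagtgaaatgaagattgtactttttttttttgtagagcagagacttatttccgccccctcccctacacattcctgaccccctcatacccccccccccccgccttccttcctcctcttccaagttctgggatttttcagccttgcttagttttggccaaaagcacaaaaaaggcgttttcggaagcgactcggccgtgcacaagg
Map3k6, chr4:133240568-133240867, plus strand: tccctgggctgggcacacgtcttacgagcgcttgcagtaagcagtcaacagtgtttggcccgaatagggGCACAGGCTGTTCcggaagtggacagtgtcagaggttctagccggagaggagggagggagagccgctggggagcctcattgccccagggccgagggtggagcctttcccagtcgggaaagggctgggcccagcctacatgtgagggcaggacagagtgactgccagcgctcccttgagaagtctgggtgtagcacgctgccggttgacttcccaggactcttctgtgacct
Fkbp5, chr17:28486100-28486399, minus strand: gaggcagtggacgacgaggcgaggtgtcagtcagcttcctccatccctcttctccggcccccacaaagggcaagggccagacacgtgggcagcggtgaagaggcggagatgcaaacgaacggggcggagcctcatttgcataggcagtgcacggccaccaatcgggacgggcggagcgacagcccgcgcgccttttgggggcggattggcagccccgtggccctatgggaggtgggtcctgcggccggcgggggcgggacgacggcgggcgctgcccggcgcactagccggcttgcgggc
The match in Sgk1, GAACAGAATGTTC, lay 188 to 176 bases before the start of 1 of its 6 windows, and that in Map3k6, GCACAGGCTGTTC, lay 181 to 169 bases before the start. The stricter form, with the arms GAACA and TGTTC, was held by the Sgk1 window. It was held by 0.0578% of all windows and by 0.0294% of those of genes with expression values. A single arm of the element, TGTTCT on either strand, which overlaps the palindrome, was found in 4 of the 15 member windows, of Tsc22d3 and Sgk1. It was found in 19.0% of all windows and in 12.6% of those of genes with expression values. Among 26 other genes known as glucocorticoid-induced with a RefSeq window, the palindrome was found in the windows of the ubiquitin ligase gene Trim63 (GAACAGTCTGTTC, 208 to 196 bases before the start) and the metallothionein gene Mt1 (GGACATGATGTTC, 94 to 82 bases before the start). These matches describe letters in short windows and say nothing of binding in these muscles.

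The levels below are FPKM as the authors deposited them, that is, reads scaled by transcript length and by the size of the library. Differences were tested with limma on log2(TPM + 1) after scaling by TMM factors, and adjusted p-values are by the Benjamini-Hochberg method over all 13363 genes. A gene is called higher or lower at an adjusted p under 0.05, and a differentially expressed gene (DEG) also has a fold change above 4 on that scale. The FPKM of a muscle summed to between 531061 and 585169 in the C26 group and between 626992 and 688300 in the Control group, and the counts behind them are unknown. For this reason an FPKM ratio and a fold change on the scaled values can differ. Skeletal muscle fiber markers such as Acta1 and Ckm summed to between 81680 and 124719 FPKM in C26 and between 179205 and 194577 in Control, although the extraction note in the labels speaks of another cell type. Control replicate 3 stood apart by the B cell gene Cd79b, at 134 FPKM against 0.82 or less elsewhere, and C26 replicate 2 by Cd68, a lysosomal gene listed among the macrophage markers, at 247 FPKM against 34.9 or less elsewhere. None of the 9 other macrophage and leukocyte markers was highest in that muscle. C26 replicate 3 stood apart by the fast myosin gene Myh1, at 2555 FPKM against 331 or less elsewhere, and its part in the members' values there was not tested. The same 7 members described below as higher were called without any of these 3 muscles in turn. Fibroblast markers summed to between 187 and 252 FPKM in C26 and between 444 and 597 in Control, and erythrocyte markers to between 615 and 1188 and between 329 and 508. Their part in the results below was not tested. In such bulk tissue, fewer cells of a type and less RNA per cell cannot be told apart.

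In C26 muscle, 7 of the 10 members were higher, 0 were lower and 3 were not called, against 19.4% higher and 14.5% lower of all genes (33.8% in either direction). At an unadjusted p under 0.05 limma also found 0 members lower, with Hsd11b1 narrowly above it (log2 fold change -0.74, unadjusted p = 0.0504, limma). The 7 were Fkbp5, Tsc22d3, Zbtb16, Errfi1, Map3k6, Cebpb and Cebpd, and 5 of them (all but Tsc22d3 and Zbtb16) were DEGs, against 1.77% of all genes. The scaled levels of the groups did not overlap for the same 7, a state shared by 53.5% of all genes, and the FPKM did not overlap for those 7 and Hsd11b1 (53.3% of all genes). The median log2 fold change was 1.93 over the members and -0.05 over all genes. The members and the gene lists below were chosen with earlier results of these data known. Their contrasts with all genes are therefore no independent evidence. Over all genes, 2590 were called higher and 1931 lower, and the FPKM as deposited gave 1678 and 2504. The 7 members were called higher in each of 9 alternative fits and in each of 6 fits that left out a muscle.

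**Figure D1:**
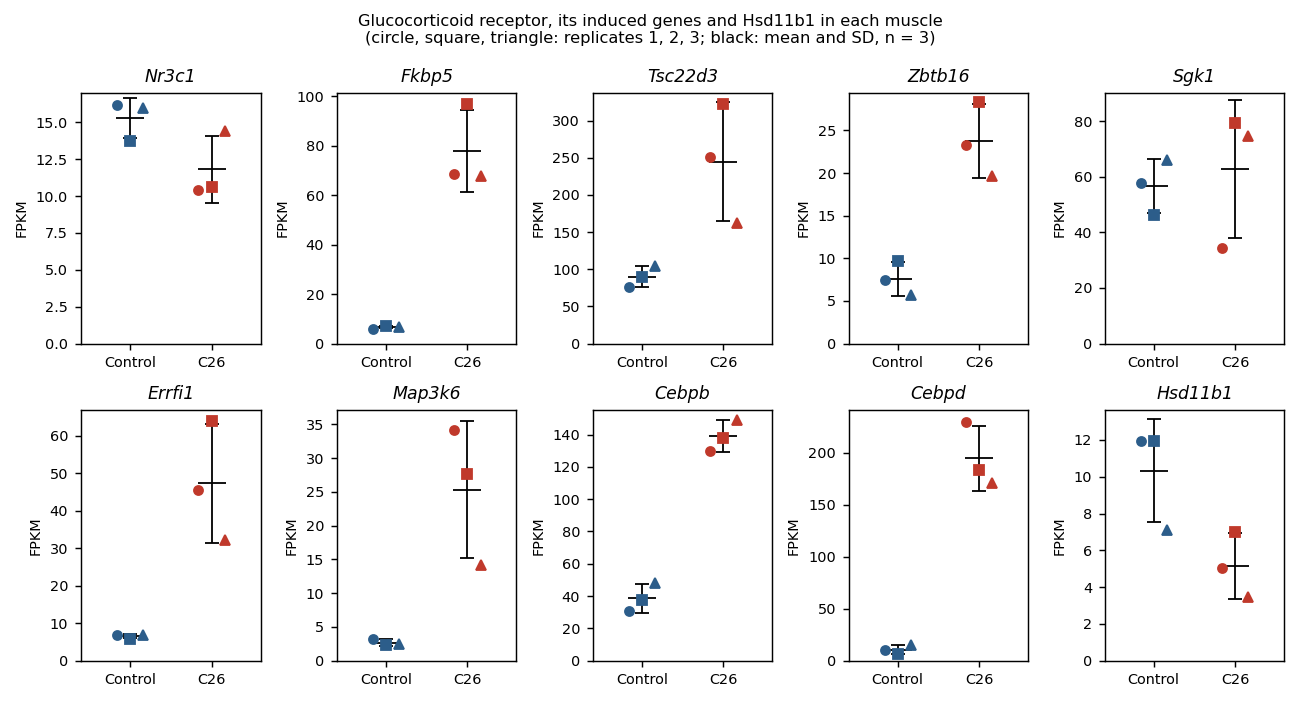
FPKM of the 10 members in each muscle, each gene in its own panel on a linear axis. Points show the 3 C26 and 3 Control muscles, and black marks the mean and SD. Cebpd, Fkbp5, Map3k6 and Errfi1 had the largest fold changes of the members. Nr3c1 and Sgk1 overlap, and the Hsd11b1 groups nearly touch, at 7.01 FPKM in C26 and 7.08 in Control.

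The receptor gene Nr3c1 stood at 10.43, 10.59 and 14.41 FPKM in C26 muscles 1 to 3 and at 16.20, 13.74 and 15.94 FPKM in Control muscles 1 to 3. C26 replicate 3 lay between the Control muscles, so the groups overlapped. Its log2 fold change was -0.16 (SE 0.19, 95% interval -0.61 to 0.29, adjusted p = 0.523, limma), so the interval reaches down to a fall of 0.61 and up to a rise of 0.29. On the FPKM as deposited and under the other alternatives the log2 fold change lay between -0.41 and -0.13, with adjusted p from 0.130 to 0.572. The genes whose levels followed Nr3c1 most closely over the 6 muscles, among 10435 genes with a mean of at least 1 FPKM, were Ndufa2, Zbed3 and Oxld1. Their root mean square distance from Nr3c1, on log2 values centred per gene, was 0.03, 0.04 and 0.04.

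Hsd11b1, the reductase that regenerates active hormone, had 5.06, 7.01 and 3.44 FPKM in the C26 muscles and 11.94, 11.97 and 7.08 FPKM in the Control muscles. Every C26 muscle lay below every Control muscle in FPKM, narrowly at the nearest pair, whereas the scaled levels overlapped. Its log2 fold change of -0.74 (SE 0.31, 95% interval -1.48 to 0.0018, adjusted p = 0.107, limma) did not pass the threshold. Without Control replicate 3 it was -1.02 with an adjusted p of 0.0337, and the other fits that left out a muscle gave no call. Fat cells express this gene, and 9 of 10 fat markers were lower on average in C26, with 6 called. The fat markers summed to 5741, 2817 and 802 FPKM in Control muscles 1 to 3 and to between 455 and 644 in C26, no marker was at 0, and their part in the Hsd11b1 values was not tested.

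Fkbp5 encodes the immunophilin FKBP51, a co-chaperone that lowers the receptor's affinity for hormone and is itself induced by it. It had 68.38, 96.79 and 67.82 FPKM in the C26 muscles and 6.08, 7.07 and 6.80 FPKM in the Control muscles. The lowest C26 muscle lay far above the highest Control muscle, and the Control muscles were close together, with a coefficient of variation of 7.70%. The scaled level was 12.3-fold higher in C26 (log2 fold change 3.62, SE 0.18, adjusted p = 0.000822, limma), the 33rd largest rise in the data. With a muscle left out, the log2 fold change lay between 3.48 and 3.75. The nearest genes over the 6 muscles by the same measure were the zinc transporter gene Slc39a14 (distance 0.10), Arl4d (0.21) and the kinase gene Sik1 (0.27).

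Tsc22d3 encodes GILZ, a leucine zipper protein that carries part of the hormone's anti-inflammatory action. It had 251.16, 321.99 and 162.06 FPKM in the C26 muscles and 76.15, 89.61 and 104.58 FPKM in the Control muscles. All C26 muscles were above all Control muscles, and the C26 muscles spread over a wide range with replicate 3 the lowest. The scaled level was 3.05-fold higher (log2 fold change 1.61, SE 0.25, adjusted p = 0.00702, limma), below the fold criterion for a DEG. With a muscle left out, the value lay between 1.42 and 1.92.

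Zbtb16 encodes PLZF, a zinc finger repressor of transcription that responds strongly to the hormone in many tissues. It had 23.28, 28.28 and 19.70 FPKM in the C26 muscles and 7.42, 9.67 and 5.64 FPKM in the Control muscles. The groups did not overlap, and the highest muscle of each was replicate 2. The difference was 3.46-fold (log2 fold change 1.79, SE 0.25, adjusted p = 0.00583, limma). It passed the fold criterion without Control replicate 2, at a log2 fold change of 2.03.

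Errfi1 and Map3k6 encode regulators of kinase signaling: Errfi1 makes MIG6, an inhibitor of the EGF receptor, and Map3k6 makes ASK2, a stress-activated kinase. Errfi1 had 45.53, 64.02 and 32.35 FPKM in the C26 muscles and 6.95, 5.85 and 7.0 FPKM in the Control muscles. Map3k6 had 34.12, 27.59 and 14.23 FPKM in the C26 muscles and 3.24, 2.36 and 2.44 FPKM in the Control muscles. For both genes the C26 values were all higher than the Control values, and C26 replicate 3 was the lowest of its group. Errfi1 was 7.41-fold higher (log2 fold change 2.89, SE 0.22, adjusted p = 0.00142, limma) and Map3k6 8.56-fold higher (log2 fold change 3.10, SE 0.30, adjusted p = 0.00233, limma). Their values with a muscle left out were 2.68 to 3.18 for Errfi1 and 2.85 to 3.50 for Map3k6.

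Sgk1 encodes a kinase named for serum and glucocorticoid regulation that acts on ion transport and cell survival. It had 34.37, 79.45 and 74.67 FPKM in the C26 muscles and 57.70, 46.42 and 65.91 FPKM in the Control muscles. C26 replicate 1 was the lowest of all 6 muscles and the other C26 muscles were the highest, so the groups overlapped. Its log2 fold change of 0.28 (SE 0.33, 95% interval -0.52 to 1.09, adjusted p = 0.529, limma) was not called. Without C26 replicate 1 it was 0.68 with an adjusted p of 0.0547, and after quantile normalization it was -0.14 with an adjusted p of 0.789, so no direction can be given. Its window, shown above, was the only member window with the strict palindrome.

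Cebpd and Cebpb encode transcription factors of the C/EBP family that act early in hormone and cytokine responses. Cebpd had 230.15, 183.52 and 170.86 FPKM in the C26 muscles and 10.72, 6.56 and 14.78 FPKM in the Control muscles. Cebpb had 129.76, 137.93 and 149.26 FPKM in the C26 muscles and 30.56, 37.47 and 48.25 FPKM in the Control muscles. In both, the groups were far apart and no muscle crossed over. Cebpd had the largest change of the members, 20.9-fold (log2 fold change 4.38, SE 0.25, adjusted p = 0.000822, limma), and Cebpb was 4.18-fold higher (log2 fold change 2.06, SE 0.20, adjusted p = 0.00226, limma). Cebpb fell short of the fold criterion in the FPKM as deposited, after quantile normalization and without Control replicate 1, where its log2 fold changes ranged down to 1.62. The ratio of Cebpd to Cebpb was 1.14 to 1.77 in C26 and 0.175 to 0.351 in Control (two-sided exact permutation test, p = 0.1, the smallest that 3 muscles against 3 can give). It was among 5 ratios computed, and each gave that p.

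**Figure D2:**
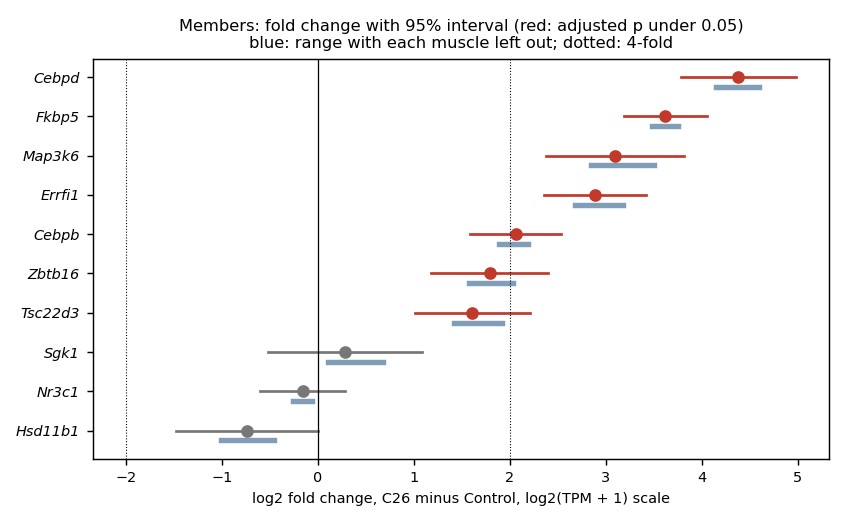
Log2 fold change of each member, C26 minus Control, with its 95% interval on the log2(TPM + 1) scale. Cebpd, Fkbp5, Map3k6, Errfi1 and Cebpb lie past the 4-fold line, and the intervals of Nr3c1, Sgk1 and Hsd11b1 cross zero.

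The members also differed in where they stood by level, on FPKM, which is per length. In C26 the order by mean was Tsc22d3 (245), Cebpd (195), Cebpb (139), Fkbp5 (77.7), Sgk1 (62.8), Errfi1 (47.3), Map3k6 (25.3), Zbtb16 (23.8), Nr3c1 (11.8) and Hsd11b1 (5.17). Neighbours in this order overlapped in their ranges except for Cebpd and Cebpb, Cebpb and Fkbp5, Zbtb16 and Nr3c1, and Nr3c1 and Hsd11b1. In Control the order was Tsc22d3 (90.1), Sgk1 (56.7), Cebpb (38.8), Nr3c1 (15.3), Cebpd (10.7), Hsd11b1 (10.3), Zbtb16 (7.58), Fkbp5 (6.65), Errfi1 (6.60) and Map3k6 (2.68). Here neighbours overlapped except for Tsc22d3 and Sgk1, Cebpb and Nr3c1, and Errfi1 and Map3k6. Nr3c1 therefore stood above Fkbp5 and Cebpd in Control and below both in C26, and its Fkbp5 ratio was 4.71 to 9.14 in C26 and 0.375 to 0.515 in Control. Within the C26 group, replicate 2 held the highest FPKM for 6 of the 10 members and replicate 3 the lowest for 7, and on the scaled levels these counts were 5 and 5.

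The receptor's partners and the hormone's supply were counted over lists of chaperones and co-chaperones, coregulators, and steroid enzymes, transporters and related receptors. Of their 35 measured genes (39 listed), 15 were higher, 2 were lower and 18 were not called, with a median log2 fold change of 0.28 (-0.05 over all genes). The number called higher fell to 4 without C26 replicate 1, to 6 without C26 replicate 2 and to 4 without Control replicate 1, to 9 on FPKM as deposited and to 8 after quantile normalization. Over all genes 19.4% were called higher, and in those 5 fits, in the same order, 8.46%, 11.4%, 8.62%, 12.6% and 16.8%.

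Among 14 chaperones, 6 were higher and 0 lower, and of 15 coregulators 8 were higher and 0 lower by limma, against 19.4% higher and 14.5% lower of all genes. Without C26 replicate 1, and likewise without Control replicate 1, Ptges3 and Hsp90ab1 were the only chaperones and Ppargc1a the only coregulator called higher. Lower genes in these lists also numbered 0 at an unadjusted p under 0.05. Ptges3, the co-chaperone p23 that stabilizes the hormone-binding state, rose from 35.6 ± 2.47 to 102 ± 32.9 FPKM (SD, n = 3 each; log2 fold change 1.66, adjusted p = 0.00604, limma). Hsp90ab1, an HSP90 subunit, rose from 572 ± 23.2 to 1407 ± 397 FPKM (SD, n = 3 each; 1.47, adjusted p = 0.00598, limma). Ppp5c (0.95), Hspa8 (0.87) and Hspa4 (0.70) were also called higher, but the calls did not hold throughout. Without Control replicate 1 their adjusted p-values were 0.0655, 0.134 and 0.0571, and without C26 replicate 1 they were 0.0665, 0.0968 and 0.0539. Without C26 replicate 2 the calls of Ppp5c (0.0582) and Hspa8 (0.0698) were lost, and that of Hspa8 also without Control replicate 2 (0.0829) or 3 (0.0724). Fkbp4, the co-chaperone FKBP52 that competes with FKBP51 in the receptor complex, stood at 61.5 ± 7.71 FPKM in C26 and 66.0 ± 1.07 in Control (SD, n = 3 each; log2 fold change 0.11, 95% interval -0.29 to 0.50, adjusted p = 0.636, limma). The ratio of Fkbp5 to Fkbp4 was 1.03 to 1.46 in C26 and 0.0920 to 0.105 in Control.

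Among the coregulators, Ppargc1a, the coactivator PGC-1 alpha, rose from 3.01 ± 0.540 to 10.2 ± 0.775 FPKM (SD, n = 3 each; log2 fold change 1.77, adjusted p = 0.00282, limma). Carm1 (1.24), Med14 (0.84), Sirt1 (0.82) and Ncor1 (0.62) followed, and all 4 lost the call without C26 replicate 1 and without Control replicate 1, at adjusted p from 0.0621 to 0.0825. Without C26 replicate 2, Carm1 (0.0617), Sirt1 (0.0558) and Ncor1 (0.0681) lost it as well. Of 6 genes for steroid supply and related receptors, the drug and steroid exporter gene Abcb1b rose from 2.05 ± 0.296 to 12.5 ± 5.99 FPKM (SD, n = 3 each; 2.36, adjusted p = 0.00736, limma). It has a close copy, Abcb1a, and RSEM may have divided reads that match both. The estrogen receptor gene Esr1 fell from 4.26 ± 0.375 to 1.73 ± 0.136 FPKM (SD, n = 3 each; -0.88, adjusted p = 0.00638, limma). The hydroxysteroid dehydrogenase gene Akr1c14 was lower (-0.83, adjusted p = 0.0133, limma) but not without C26 replicate 1 (0.0587) or Control replicate 1 (0.0524). The mineralocorticoid receptor gene Nr3c2, whose protein also binds corticosterone, stood at 0.73 FPKM in both groups.

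**Figure D3:**
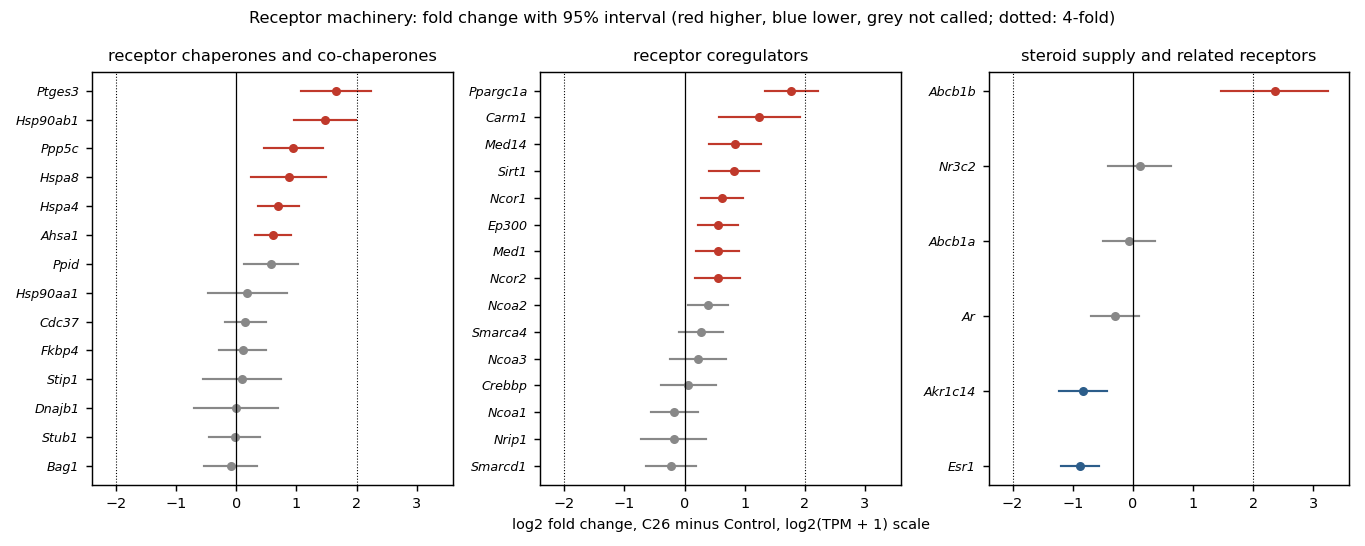
Log2 fold change, C26 minus Control, with 95% intervals for the receptor's chaperones, coregulators and steroid supply genes. Ptges3, Hsp90ab1, Ppargc1a and Abcb1b lie farthest to the right, and Esr1 and Akr1c14 are the 2 genes called lower.

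A second list held other genes known from background knowledge as glucocorticoid-induced, written with earlier results of these data in view, so its direction is no independent evidence. Of 29 measured genes (30 listed), 22 were higher, 3 were lower and 4 were not called, with a median log2 fold change of 2.01 and 15 DEGs, all higher. Of all genes, 19.4% were higher, 14.5% lower and 1.77% DEGs that were higher. The largest rises were those of the metallothionein genes Mt2 (5.13) and Mt1 (4.71), the muscle ubiquitin ligase genes Trim63 (4.89) and Fbxo32 (4.36), and Ddit4 (4.62), an inhibitor of mTORC1 signaling. Mt2 depended on single muscles, at 4.43 without C26 replicate 2, below Trim63 (4.94), Ddit4 (4.68) and Fbxo32 (4.48) in that fit, and at 5.85 without C26 replicate 1, and Ddit4 was at 5.24 without Control replicate 3. Trim63 rose from 129 ± 19.3 to 3359 ± 815 FPKM and Fbxo32 from 36.7 ± 10.3 to 658 ± 177 FPKM (SD, n = 3 each). Mt1 and Mt2 are paralogs, so RSEM may likewise have divided shared reads. The 3 lower genes, named after their values were seen, were Bcl6 (-1.43), Anxa1 (-1.25) and Cdkn1c (-1.10). Anxa1 lost its call without Control replicate 2 (adjusted p = 0.0563) and without each C26 muscle in turn (0.0513 to 0.0936). Those not called were Arrdc2 (1.38), Mstn (0.28), Nfkbia (0.22) and Sult1a1 (0.13).

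**Figure D4:**
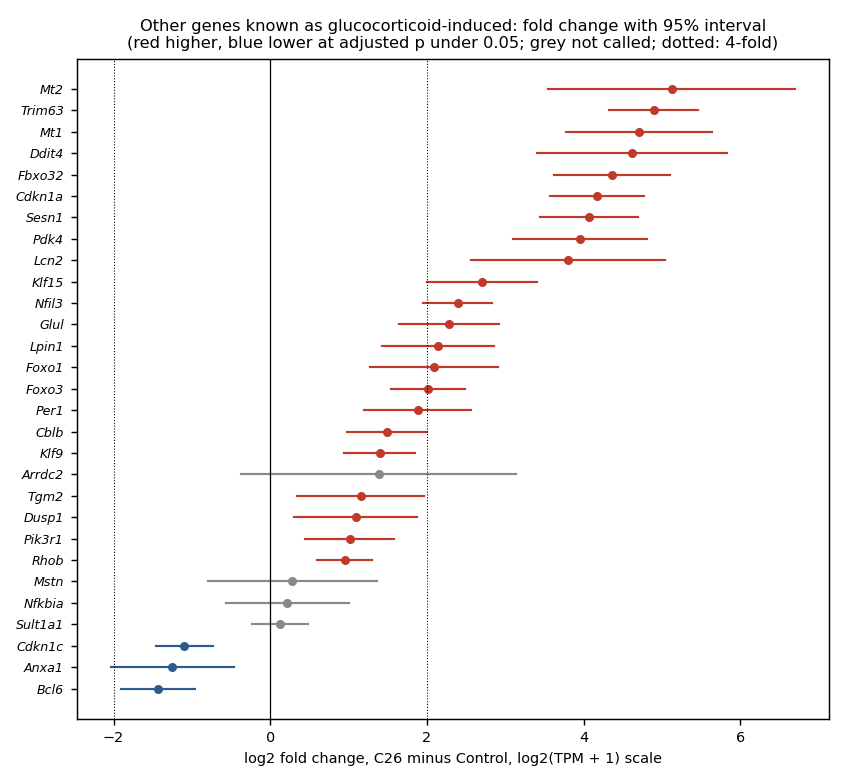
Log2 fold change, C26 minus Control, with 95% intervals for the 29 other genes known as glucocorticoid-induced. Mt2, Trim63, Mt1, Ddit4 and Fbxo32 lie highest, and Cdkn1c, Anxa1 and Bcl6 are the 3 genes called lower.

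Of 8 measured inflammatory genes (16 listed) that the hormone is known to repress, 0 were higher, 1 was lower and 7 were not called by limma. With 14.5% of all genes lower, this count is near the background. At an unadjusted p under 0.05, Vcam1 and Ccl2 were lower and 0 genes were higher. Vcam1, an adhesion molecule of activated endothelium, had 0.36, 0.39 and 0.66 FPKM in C26 and 2.34, 1.14 and 5.47 in Control (log2 fold change -1.42, adjusted p = 0.0364, limma). Its call was kept in 2 of 6 fits that left out a muscle, without Control replicate 2 or 3. The 7 other genes had group means of at most 4.25 FPKM, and Ccl2, the chemokine MCP-1, was at 0.12 ± 0.07 FPKM in C26 and 0.55 ± 0.259 in Control (SD, n = 3 each; adjusted p = 0.0538, limma).

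In the C/EBP family, Cebpg (log2 fold change 1.03) and Cebpz (0.91) were also higher, and Cebpa was lower. Cebpa, the family member of mature fat and liver cells, had 2.50, 2.71 and 1.18 FPKM in C26 and 40.80, 26.45 and 6.53 in Control (log2 fold change -2.74, adjusted p = 0.0231, limma). The call held in 1 of 6 fits that left out a muscle, that without Control replicate 3, where the log2 fold change was -3.53, and Control replicate 1 had the highest and Control replicate 3 the lowest value of that group for both Cebpa and the fat marker sum given above, whose part in the result was not tested. Cebpz lost its call without C26 replicate 1 (adjusted p = 0.0580) and without Control replicate 1 (0.0540). Ddit3, the stress gene CHOP, stood at 13.6 ± 2.91 and 16.1 ± 0.834 FPKM (SD, n = 3 each; log2 fold change -0.04, adjusted p = 0.898, limma).

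Among the TSC22 domain genes, Tsc22d4 fell from 28.4 ± 4.39 to 10.6 ± 0.477 FPKM (SD, n = 3 each; log2 fold change -1.15, adjusted p = 0.00469, limma) while Tsc22d3 rose, and the Tsc22d3 to Tsc22d4 ratio was 15.5 to 29.0 in C26 and 3.08 to 3.31 in Control. Tsc22d2 was higher (0.82), though not without C26 replicate 1 or 2 or Control replicate 1 (adjusted p = 0.0559 to 0.0687), and Tsc22d1 was not called (0.64, adjusted p = 0.0673). In the FKBP family, 3 of 14 genes were higher and 2 lower, near the 19.4% and 14.5% of all genes. Fkbp5 was the family's only DEG, ahead of Fkbpl (1.16) and Fkbp15 (0.71), and the collagen-folding immunophilin gene Fkbp10 was lower (-1.08, adjusted p = 0.00799). Fkbp7 was called lower (-0.77) and, like Fkbp15, lost its call without C26 replicate 1 or 2 or Control replicate 1 or 2 (adjusted p = 0.0970 to 0.148), and Fkbp7 also without Control replicate 3 (0.0656). Fkbpl lost it without C26 replicate 1 (0.0539) and Control replicate 1 (0.0530).

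In the MAP3K family, Map3k6 was the only DEG of 16 genes. Map3k5, the kinase ASK1 that pairs with ASK2, stood at 1.42 ± 0.335 FPKM in C26 and 2.18 ± 0.212 in Control (SD, n = 3 each; log2 fold change -0.31, adjusted p = 0.160, limma). Map3k14 (1.77) and Map3k8 (1.31) were called higher and Map3k12 lower (-0.60), and each lost the call without C26 replicate 1 or 2 or Control replicate 1 (adjusted p = 0.0727 to 0.130). Map3k14 also lost it without Control replicate 2 (0.0676), and Map3k8 without Control replicate 2 (0.106) or 3 (0.0518). For the serum and glucocorticoid kinases, Sgk3 (0.36, adjusted p = 0.168) was not called either. The target of Errfi1's protein, Egfr, stood at 1.70 ± 0.477 FPKM in C26 and 1.51 ± 0.270 in Control (SD, n = 3 each; log2 fold change 0.27, adjusted p = 0.288, limma). Of the 9 measured genes (15 listed) of the EGF receptor family and its ligands, 0 were higher by limma, and 1, the ligand gene Btc, was lower (-0.66), against 19.4% and 14.5% of all genes. At an unadjusted p under 0.05, Hbegf (0.98) was also higher and Egf (-1.52, from 9.80 ± 2.30 to 2.99 ± 2.42 FPKM, SD, n = 3 each) also lower, and neither was called. Egf was called in 3 of 9 alternatives and without C26 replicate 3 (-2.01, adjusted p = 0.00421), and Hbegf without C26 replicate 1 (1.37, adjusted p = 0.0422). The Btc call was lost without C26 replicate 1 or 2 or Control replicate 1 (adjusted p = 0.0538 to 0.0627).

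**Figure D5:**
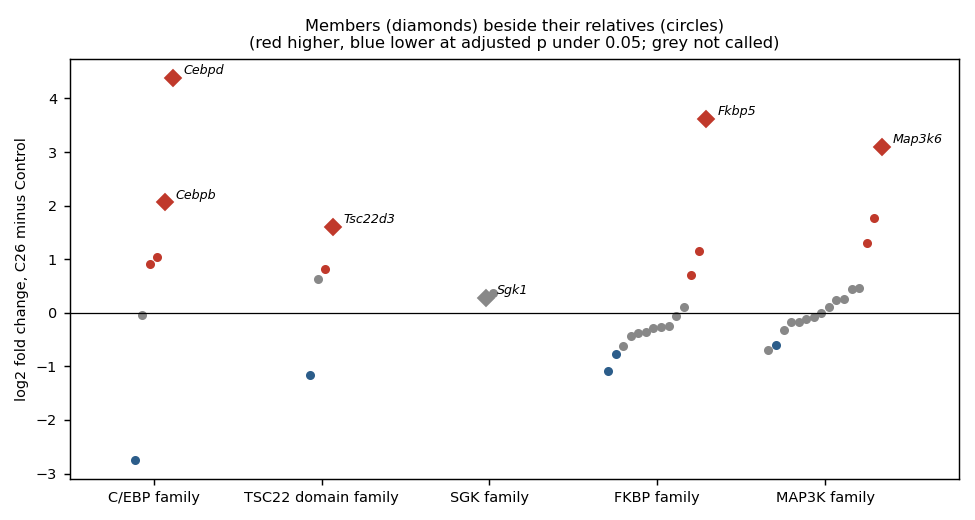
Log2 fold change, C26 minus Control, of each measured gene in the families of the members, with members set apart from their relatives. Cebpd, Cebpb, Tsc22d3, Fkbp5 and Map3k6 lie above their relatives, Sgk1 does not stand apart from Sgk3, and Cebpa is the lowest of the genes shown.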

How the data were processed

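Sequencing covered 3 gastrocnemius muscles of the C26 group and 3 of the Control group. The deposited values are FPKM per Entrez gene ID. According to the study's methods the authors filtered the reads (single-end, 50 bases), mapped them to GRCm38.p5 with bowtie2 and obtained expression from RSEM. The submitters' processing notes name mm9, HISAT2 2.0.4, Bowtie2 2.2.5 and RSEM 1.2.12, and no coordinates of the deposited values were used. No read counts were analysed, so depth and counting error are unknown and precision rests on the spread between muscles.

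Groups and replicate numbers came from the sample labels. Symbols were matched for 13327 of 13363 genes. FPKM were rescaled to a sum of 1e+06 (TPM), divided by unweighted TMM factors (trimming 30% of the log ratios and 5% of the mean levels), and log2-transformed after adding a pseudocount of 1, which understates the change of low genes. Groups were compared with limma 3.58.1 in R 4.3.3 with empirical Bayes moderation and Benjamini-Hochberg adjustment, and the fit was tested on simulated data. Ratios of genes within a muscle were compared by exact permutation tests of log2 ratios. The members and lists were chosen with earlier results of these data known. Besides the members, the text names up to 5 called genes with the largest change of each list, the members' family relatives and the 3 genes nearest to Nr3c1 and to Fkbp5. Alternatives were a pseudocount of 0.1, a filter at a mean TPM of 1, quantile normalization, TPM without TMM, FPKM as deposited, a replicate block, an intensity trend, unmoderated p-values and, chosen after seeing the data, TMM with precision weights. Each muscle was also left out in turn. Promoter windows were read from RefSeq tables of GRCm38.p6 with Python 3.11.15, and figures were drawn with matplotlib 3.10.9.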

Additional observations from a re-analysis of the deposited data

How the results depend on the processing

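Of 150 log2 fold changes of the members under the alternatives and with muscles left out, 147 kept their direction and side of the threshold. Sgk1 reversed to -0.14 after quantile normalization. Hsd11b1 passed the threshold with the replicate number as a block (adjusted p = 0.0416) and without Control replicate 3 (0.0337). The members called lower numbered 1 with the replicate block and 0 to 1 with a muscle left out, and those called higher were 7 throughout. The receptor machinery genes called higher, 15 in the fit reported, were 9 on FPKM as deposited, 8 after quantile normalization, 8 with the replicate block and 4 to 17 with a muscle left out, and those called lower, 2, were 1 after quantile normalization and 1 to 2 with a muscle left out. The cause was not tested. The members that were DEGs were 4 to 5 under the alternatives and 4 to 6 with a muscle left out. Over all genes the replicate block gave 1844 higher and 1236 lower calls in place of 2590 and 1931. A pseudocount of 0.1 gave 300 higher and 566 lower DEGs in place of 236 and 231, FPKM as deposited 148 higher DEGs, and unmoderated p-values 194 and 122 DEGs, with 1526 and 959 calls. With a muscle left out, 1131 to 3311 genes were higher and 669 to 2160 lower. The replicate numbers did not pair the muscles: deviations of same-numbered muscles from their group means correlated at -0.0394, -0.0843 and -0.112, and no muscle correlated best with its own number. The low FPKM of the repressed inflammatory genes limit what could be seen of them.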
